A study of Mus musculus with 24 samples.

Results

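The data cover 3 mouse microRNAs (miRNAs): both arms of miR-342, mmu-miR-342-3p and mmu-miR-342-5p, and the main arm of miR-150, mmu-miR-150-5p. They were taken by name, as every probe that the array files assign to one of the 3 mature miRNAs. This gave 3 of 1881 miRNAs, 8 of 4415 probes and 90 of 56430 non-control spots, read on 24 arrays. The arrays held total RNA from liver and from serum of male C57BL/6NJcl mice, bought at 5 weeks of age and acclimatised for 1 week. The NASH group ate a choline-deficient high-fat diet (CDAHFD) supplemented with 0.1% methionine, used as a model of non-alcoholic steatohepatitis, in which fatty liver becomes inflamed. The control group ate the solid chow CE-2, so the diets differed in more than choline. Mice were sampled after 1, 2 and 6 weeks on diet, at 7, 8 and 12 weeks of age, and each tissue, diet and week has 2 arrays. Nothing in the labels tells whether arrays of a group come from separate mice, so p-values measure the spread between arrays, which may be technical.

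A miRNA hairpin is cut to a short duplex, and one arm (sometimes either) is loaded into an Argonaute protein, where bases 2 to 8, the seed, pair with messenger RNAs. miR-342 and miR-150 are both known for high expression in mature B and T lymphocytes. miR-150 is known in mouse lymphocytes for repressing Myb, a transcription factor of immature blood cells. Mir342 lies within Evl, a gene for an actin-regulating protein, on chromosome 12, and Mir150, on chromosome 7, lies within no other annotated gene. Lymphocytes are a minor part of healthy liver and enter it in hepatitis, and serum holds miRNAs released by blood cells and by tissues.

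Both mature arms of miR-342 are shown because the array read them separately and at very different brightness. The sequences are from RefSeq (GRCm38.p6), with the seed in capitals.
mmu-miR-342-5p, chr12:108658638-108658659, plus strand: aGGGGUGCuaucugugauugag
mmu-miR-342-3p, chr12:108658680-108658702, plus strand: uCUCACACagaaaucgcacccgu
Their hairpin follows, with both arms in capitals.
Mir342 hairpin, chr12:108658620-108658718, plus strand: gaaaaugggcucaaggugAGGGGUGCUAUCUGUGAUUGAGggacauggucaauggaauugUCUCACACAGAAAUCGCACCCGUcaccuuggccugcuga
The arms have different seeds, and no other of the 1679 mature miRNAs in the RefSeq table carries either seed.

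Levels below are log2 scaled signals of the brightest probe of a miRNA, scaled within a tissue, so that 0 is the 75th percentile of the probes that were well above background on all 12 arrays of that tissue. Signals under a floor, −5.46 in liver and −4.70 in serum, were set to it. On these scales miR-342-3p was detected on all 24 arrays and miR-150-5p on all 12 serum arrays. In liver, miR-150-5p was detected on 6 of 6 NASH arrays and 3 of 6 control arrays, and miR-342-5p on 6 of 6 NASH arrays and 0 of 6 control arrays. In serum, miR-342-5p was detected on 2 of 6 NASH arrays and 0 of 6 control arrays. All 7 hepatocyte miRNAs listed as liver markers were detected on every NASH liver array, and 6 of 7 on every control liver array. miR-342-5p entered the tests through arrays of the NASH groups, whereas miR-150-5p in liver was detected on enough control arrays to enter without them. Between 337 and 379 miRNAs were detected on NASH liver arrays, against 253 to 307 on control liver arrays, and between 313 and 399 on NASH serum arrays, against 235 to 362 on control serum arrays. The scaling percentile was 0.43 higher on the log2 scale in NASH than in control livers (exact permutation of diet within weeks, two-sided p = 0.0185) and 0.78 higher in NASH than in control serum (p = 0.0278). NASH arrays lay in slide columns 2 and 4 and control arrays in columns 1 and 3, and these positions cannot be told apart from diet.

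miR-342-3p was higher in NASH livers than in control livers at every week. At week 1 its log2 level was −0.74 and −0.94 in NASH livers, against −2.44 and −2.61 in control livers. At week 2 it was 0.03 and −0.04 in NASH livers, against −2.80 and −2.37 in control livers. At week 6 it was 0.27 and 0.17 in NASH livers, against −2.90 and −2.57 in control livers. Every NASH liver lay above every control liver, as was so for 10.6% of the 388 miRNAs tested in liver. Arrays of 1 group differed by 0.08 to 0.42. The 2 miR-342-3p probes read alike, and unscaled signals of the brighter one ran from 349 to 893 intensity units in NASH livers, against 52.8 to 109 in control livers.

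The fold change of miR-342-3p in liver was 3.22 at week 1, 5.97 at week 2 and 7.74 at week 6. On the log2 scale these were 1.69, 2.58 and 2.95, each with an SE of 0.17 (limma, adjusted p = 0.0020, 1.31e-04 and 6.34e-05). Calls in the higher direction at these weeks made up 6.19%, 18% and 12.4% of the 388 miRNAs. Averaged over weeks it rose by 2.41 ± 0.10 (SE, n = 6 against 6), or 5.30-fold, in 6 of 6 NASH livers (adjusted p = 6.1e-06). Of all miRNAs tested, 21.9% were called higher in that average, and the median difference of the 218 detected on all liver arrays was −0.06. The second probe gave 2.50. The difference between weeks did not pass its test (moderated F = 14.45, adjusted p = 0.0734), where 3.35% of miRNAs were called. It passed with the total signal of the probes (adjusted p = 0.0150), median centring (0.0468) or quantile normalization (0.0484), and without the first control liver of week 2 (0.0367). The week 1 call was lost with scaling over all probes (1.87, adjusted p = 0.0627).

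**Figure D1:**
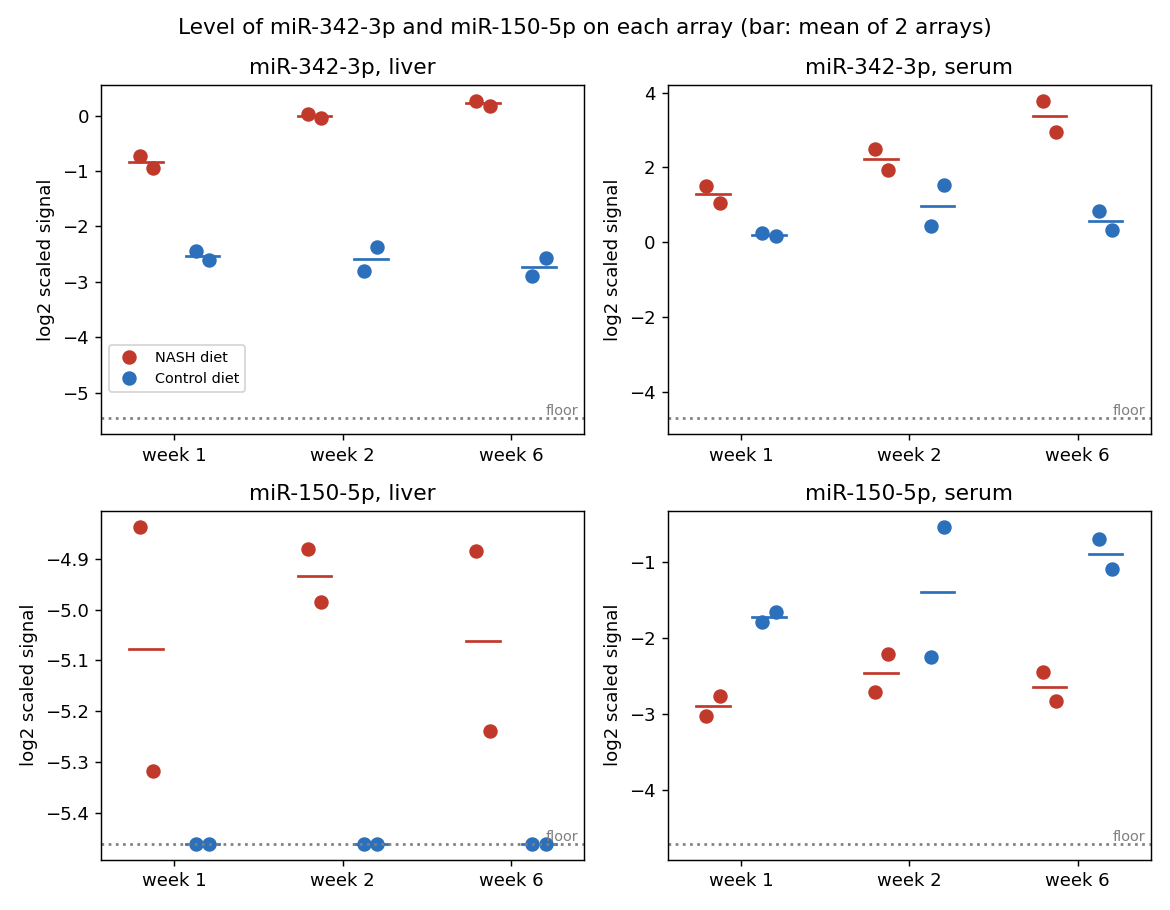
Log2 scaled signal of miR-342-3p (top) and miR-150-5p (bottom) in liver (left) and serum (right) by week, NASH arrays in red left of control arrays in blue. Points are arrays, bars are means of 2 arrays, the dotted line is the floor, and each panel has its own axis. For miR-342-3p in liver, all 6 NASH arrays lie above all 6 control arrays, while all 6 control livers lie at the floor for miR-150-5p.

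Within NASH livers, miR-342-3p was 0.22 ± 0.17 higher at week 6 than at week 2, weeks that share a slide (SE, limma adjusted p = 0.621). Within control livers the same difference was −0.15 ± 0.17 (adjusted p = 1). Livers of week 1 were on another slide. Against them, week 6 livers differed by 1.06 on NASH diet and by −0.21 on chow, given as values only. The control livers thus held miR-342-3p between −2.90 and −2.37 at all weeks, and NASH livers of weeks 2 and 6 lay above those of week 1.

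miR-342-5p, the opposite arm, was near background in liver and was seen on NASH diet. Its brightest probe read 14.2 and 9.07 intensity units at week 1, 15.7 and 20.8 at week 2, and 23.2 and 29.1 at week 6 in NASH livers. In control livers it read 1.88 and 2.80 at week 1, 2.27 and 2.83 at week 2, and 2.22 and 2.18 at week 6. The diet groups did not overlap in unscaled signal at any week. The share of all miRNAs for which this was so was not counted, and NASH liver arrays were brighter. The probe was well above background on 5 of 6 NASH livers and on 0 of 6 control livers.

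Because control livers were not well above background, the fold change of miR-342-5p is only bounded from below. Each NASH mean was set against the higher of the control signal and the dimmest signal well above background on that array. NASH livers were at least 1.25-fold higher at week 2 and at least 1.44-fold higher at week 6. Over all weeks they were at least 1.04-fold higher, and at week 1 no fold could be given. All 6 control livers and both NASH livers of week 1 lay at the floor, with no spread, so no p is given for this arm. Only 1 of the 4 probes for this arm rose above background, and the mean of its probes gave a difference of 0. In serum no probe of this arm was well above background on any array. The brightest read 11.1 and 12.1 units in NASH serum at week 6, against 1.81 and 1.64 in control serum, and no fold is given.

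miR-150-5p was dim in liver and detected more often on NASH diet. Its brightest probe read 30.4 and 16.8 intensity units at week 1, 17.1 and 22.1 at week 2, and 21.2 and 21.0 at week 6 in NASH livers. In control livers it read 6.57 and 8.34 at week 1, 6.94 and 8.63 at week 2, and 5.41 and 12.0 at week 6. All NASH livers read above all control livers in unscaled signal, for which the share of all miRNAs was not counted. NASH arrays were brighter, with a scaling percentile 0.43 higher on the log2 scale. On scaled levels NASH livers also lay above control livers, as was so for 10.6% of the 388 miRNAs. The probe was well above background on 6 of 6 NASH livers and 1 of 6 control livers, and all 6 scaled control values were at the floor.

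**Figure D2:**
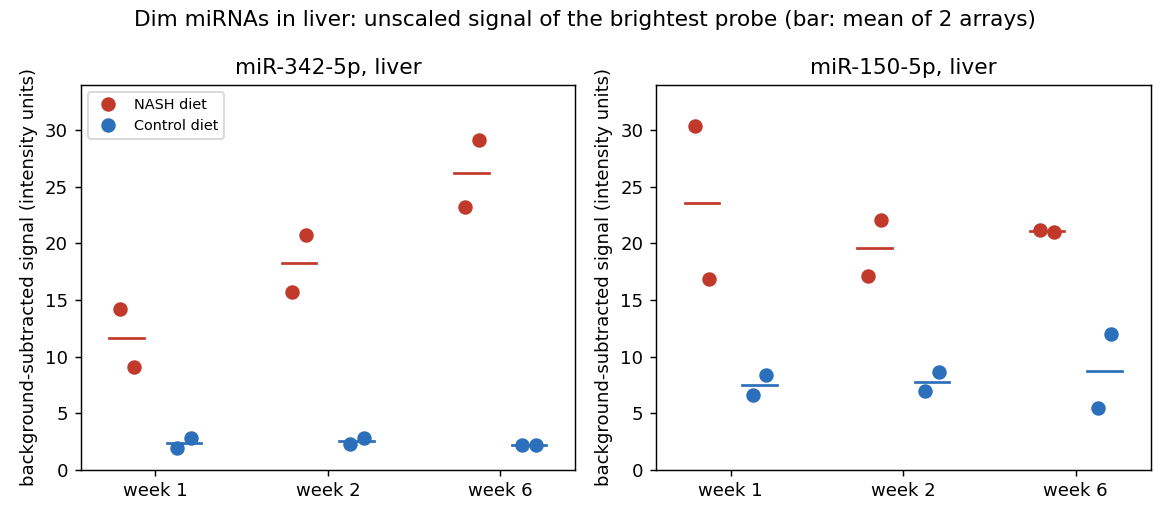
Background-subtracted signal in intensity units, not scaled between arrays, of the brightest probe of miR-342-5p (left) and miR-150-5p (right) in liver by week, NASH in red left of control in blue. Points are arrays and bars are means of 2 arrays. miR-342-5p reads 9.07 to 29.1 units in NASH livers, against 1.88 to 2.83 in control livers, and miR-150-5p reads 16.8 to 30.4 in NASH livers, against 5.41 to 12.0 in control livers.

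Averaged over weeks, miR-150-5p rose by 0.44 ± 0.10 in NASH livers on the floored log2 scale (SE, n = 6 against 6, limma adjusted p = 0.0113, 6 of 6 NASH livers higher). As all 6 control values lay at the floor, SE and p on this scale do not measure the spread of control livers. With a floor 0.5 times as high, under every signal, the same difference was 1.01 ± 0.13, or adjusted p = 2.23e-04. The bounds, where no control liver was well above background, were at least 1.25-fold at week 1 and at least 1.35-fold at week 2. Single weeks gave 0.38, 0.53 and 0.40, with adjusted p = 0.228, 0.0565 and 0.143. With the total signal of both probes they gave 0.91, 1.04 and 0.95 and all passed (adjusted p = 0.0390, 0.0113 and 0.0186), as they did with the floor 0.5 times as high, at 1.103, 1.033 and 0.908. Week 2 also passed with quantile normalization (0.13, adjusted p = 0.0411). The weekly differences gave moderated F = 0.22 (adjusted p = 1). The call was lost with the scaling taken over all probes (0.33, adjusted p = 0.0974), without the filter on dim miRNAs (0.44, adjusted p = 0.0749) and with the mean of both probes, which gave 0. It also turned to −0.15 (adjusted p = 0.253) with normexp background correction, whose offset of 50 units exceeds every one of these signals.

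In serum miR-342-3p was again higher on NASH diet, with its highest values at week 6. At week 1 its log2 level was 1.51 and 1.06 in NASH serum, against 0.25 and 0.15 in control serum. At week 2 it was 2.49 and 1.94 in NASH serum, against 0.43 and 1.54 in control serum. At week 6 it was 3.78 and 2.96 in NASH serum, against 0.84 and 0.32 in control serum. The diets did not overlap within a week, but one control array of week 2 reached above both NASH arrays of week 1. Those 2 control arrays of week 2 were 1.11 apart, the widest gap for this miRNA. Unscaled, the diets did not overlap at all, with 1203 to 4657 intensity units in NASH serum and 237 to 715 in control serum. NASH serum arrays were brighter, however, with a scaling percentile 0.78 higher on the log2 scale. The share of all miRNAs that did not overlap unscaled was not counted.

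Averaged over weeks miR-342-3p rose by 1.70 ± 0.26 in NASH serum (SE, n = 6 against 6), or 3.25-fold, in 6 of 6 NASH arrays (limma, adjusted p = 0.00591). In that average 4.93% of the 426 miRNAs tested in serum were called higher, and the median of the 196 detected on all serum arrays was −0.28. That median moved to 0.44 without scaling, where the miR-342-3p difference was 2.49. The second probe gave 1.69. Week 6 alone gave 2.79 ± 0.46, or 6.91-fold (adjusted p = 0.0157), where 5.4% of miRNAs were called higher. Without the first NASH array of week 6 it was 2.38 (adjusted p = 0.0545), and without the second it was 3.25 (adjusted p = 0.0552). The week 6 call was also lost without the filter on dim miRNAs (adjusted p = 0.0820). Weeks 1 and 2 gave 1.08 and 1.23 with the same SE and did not pass (adjusted p = 0.465 and 0.240). Week 2 passed with scaling over all probes (2.296, adjusted p = 0.0140), without scaling (2.299, adjusted p = 0.0256) and with normexp (1.24, adjusted p = 0.00509). The weekly differences were not told apart by the F test (F = 4.31, adjusted p = 0.738), where 0.469% of miRNAs were called.

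From week 1 to week 2, which share a slide, miR-342-3p differed by 0.93 ± 0.46 in NASH serum and by 0.78 ± 0.46 in control serum (limma, adjusted p = 1 and 0.486). Without scaling the control difference was −0.63. Week 6 serum was on another slide and stood 2.09 above week 1 on NASH diet and 0.38 above it on chow, given as values only.

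miR-150-5p went the other way in serum and was lower on NASH diet. At week 1 its log2 level was −3.03 and −2.76 in NASH serum, against −1.80 and −1.67 in control serum. At week 2 it was −2.72 and −2.21 in NASH serum, against −2.25 and −0.54 in control serum. At week 6 it was −2.45 and −2.83 in NASH serum, against −0.71 and −1.10 in control serum. The diets did not overlap at weeks 1 and 6 and overlapped at week 2, where the 2 control arrays were 1.71 apart.

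Averaged over weeks miR-150-5p fell by 1.32 on the log2 scale in NASH serum, to 0.399 of the control level (SE 0.30, n = 6 against 6, limma adjusted p = 0.0265). All 6 NASH arrays lay below the control mean of their week, and 13.8% of the 426 miRNAs were called lower. The second probe gave −1.17. No single week passed: week 1 gave −1.16, week 2 gave −1.07 and week 6 gave −1.74 (adjusted p = 0.465, 0.364 and 0.0753). Week 2 moved to −0.0079 with scaling over all probes and to −0.0051 without scaling, and it passed with normexp (−0.87, adjusted p = 0.0101). Week 6 passed with normexp (−1.22), quantile normalization (−1.004), a floor 0.5 times as high or only miRNAs detected on all arrays (adjusted p = 0.00191, 0.0422, 0.0337 and 0.0039), and was −0.68 without scaling (adjusted p = 0.468). The call was lost under several settings. Of 12 fits that each left out 1 array, 3 passed, with differences from −1.59 to −0.99 and adjusted p from 9.54e-04 to 0.0926. The 3 left out either control array of week 2 or the second control array of week 6. It was also lost without scaling (−0.54, adjusted p = 0.222) and with scaling over all probes (−0.65, adjusted p = 0.0942). Unscaled, miR-150-5p read 57.3 to 85.5 intensity units in NASH serum and 48.3 to 202 units in control serum, and these ranges overlap. From week 1 to week 2 it differed by 0.43 in NASH serum and 0.34 in control serum (SE 0.52 each, adjusted p = 1 and 0.834).

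**Figure D3:**
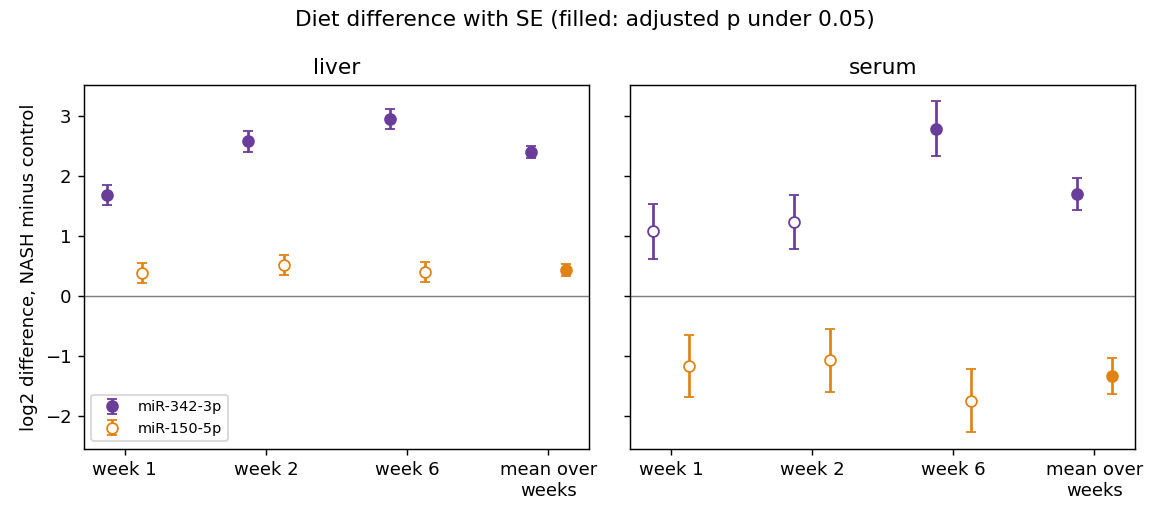
Log2 difference, NASH minus control, of miR-342-3p (purple) and miR-150-5p (orange) in liver (left) and serum (right) by week and averaged over weeks. Points are limma estimates from 2 arrays a group and week, bars are SE, and filled points passed an adjusted p threshold of 0.05. miR-342-3p is above 0 in both tissues, while miR-150-5p is at 0.44 in liver and −1.32 in serum.

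The diet differences of miR-150-5p in the tissues differed from each other. The serum difference minus the liver difference was −1.76 ± 0.32 (SE, limma over 24 arrays, adjusted p = 5.91e-04), where 26.3% of 293 miRNAs were called lower and the median over the 293 was −0.26. It passed in all 24 fits that left out 1 array, at −2.03 to −1.42. It was smaller but passed with scaling over all probes (−0.98), without scaling (−1.12), with normexp (−0.80) and with quantile normalization (−0.76), and it was −2.34 with the floor 0.5 times as high. For miR-342-3p the serum difference minus the liver difference was −0.70 ± 0.28, which did not pass (adjusted p = 0.0665). It passed without the filter on dim miRNAs (adjusted p = 0.0397) and was −0.05 with scaling over all probes (adjusted p = 0.940).

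The ratio of miR-342-3p to miR-150-5p within an array does not depend on the scaling, apart from values at the floor. In serum the log2 ratio was 3.81 to 6.24 (median 4.87) in NASH arrays, against 1.42 to 2.68 (median 1.93) in control arrays. The diets did not overlap, and the difference of 3.03 was tested by exact permutation of diet within weeks (two-sided p = 0.00926, the smallest that these permutations can give). In liver the log2 ratio was 4.10 to 5.41 (median 4.93) in NASH arrays, against 2.56 to 3.09 (median 2.87) in control arrays. That difference of 1.97 is enlarged by the control values of miR-150-5p, all 6 at the floor, and was 1.39 with a floor under every signal. As 5 of 6 control livers were not well above background for miR-150-5p, the liver ratio is given as values with no test. In serum the 2 miRNAs thus changed unequally with diet, which says nothing of the level of one against the other.

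**Figure D4:**
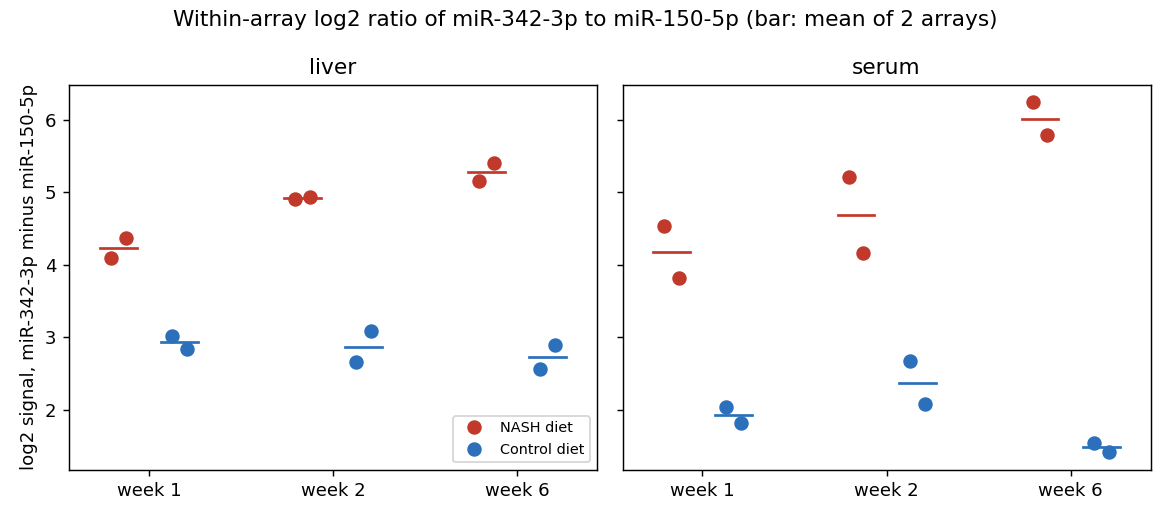
Log2 signal of miR-342-3p minus that of miR-150-5p on each array, in liver (left) and serum (right) by week, NASH in red left of control in blue. Bars are means of 2 arrays. In serum NASH arrays lie at 3.81 to 6.24, all above the control arrays at 1.42 to 2.68, and in liver at 4.10 to 5.41, above the control arrays at 2.56 to 3.09, whose miR-150-5p values are all at the floor.

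Levels in the tissues were compared after scaling all 24 arrays to the 163 probes well above background on each of them. Liver labelling used 100 ng of total RNA and serum labelling 2.5 ng, so a level is relative to these 163 probes and not an amount. On this scale miR-342-3p was lower in liver than in serum by 2.94 ± 0.18 on NASH diet (SE, limma adjusted p = 8.1e-09), a log2 difference of −2.94, where 33.1% of 526 miRNAs were called lower. On chow the difference was −4.00 ± 0.18 (adjusted p = 2.03e-10), where 50.2% were called lower. With scaling over all probes these were −1.997 and −2.044. On the only slide with both tissues, the NASH mean was −2.09 in liver of week 1 and 2.62 in serum of week 6. The control means there were −3.91 in liver and −0.0002 in serum.

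The order of the 12 groups for miR-342-3p began with NASH serum of week 6 at 2.62, NASH serum of week 2 at 1.61 and NASH serum of week 1 at 0.65. Control serum followed at 0.23, 0.00 and −0.40 for weeks 2, 6 and 1, then NASH liver at −0.82, −1.02 and −2.09 for weeks 6, 2 and 1. Control livers were last, at −3.91, −4.08 and −4.19 for weeks 1, 6 and 2. The ranges of neighbours overlapped between NASH serum of week 1 and control serum of week 2, between control serum of weeks 2 and 6, and among the 3 control liver groups.

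miR-150-5p was also lower in liver than in serum, with log2 differences of −2.59 on NASH diet and −3.97 on chow. The SE was 0.19 each (limma adjusted p = 5.24e-08 and 4.33e-10), where 33.1% and 50.2% of 526 miRNAs were called lower. On the 24-array scale 10 of 12 liver arrays lay at the floor, so the SE and p hardly measure the spread in liver. With a floor 0.1 times as high the differences were −2.79 and −5.49. They were smaller with scaling over all probes (−1.85 and −2.76), without scaling (−1.69 and −2.82) and with quantile normalization (−0.78 and −1.67). Its highest groups were control serum of weeks 6, 2 and 1, at −1.48, −2.14 and −2.33, and NASH serum followed at −3.08, −3.39 and −3.53 for weeks 2, 6 and 1. Only the step from control to NASH serum and that from NASH serum to liver separated neighbours whose ranges did not overlap. Beyond neighbours, control serum of week 2, at −2.84 to −1.45, overlapped NASH serum of week 2, at −3.42 to −2.73. miR-342-5p was at or near the floor on this scale in both tissues and has no order.

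Other miRNAs known from lymphocytes did not all follow the 3 members. In liver 4 others were tested, but miR-155-5p and miR-181b-5p entered through NASH arrays and are left out of the count. The remaining miR-181a-5p and miR-146a-5p both rose, where 21.9% of all 388 were called higher. The median log2 difference of all 4, with those that entered through NASH arrays, was 0.89, against 0 over all 388 miRNAs. miR-181a-5p, known in T cell maturation, rose by 1.29 ± 0.08 (SE). miR-146a-5p, a feedback inhibitor of NF-kB signalling, rose by 0.52 ± 0.12 (limma, adjusted p = 0.0116 or less for both), but not with scaling over all probes (adjusted p = 0.115). miR-155-5p, induced in activated lymphocytes and macrophages, was at 1.27, but was detected on 6 NASH livers and 1 control liver. It entered the test through NASH arrays, so no p is given for it. miR-181b-5p, which did not pass, was detected on 4 NASH and 0 control livers. The summed scaled level of the list was 0.460 to 0.550 in NASH livers, against 0.267 to 0.375 in control livers. In serum 3 of 5 tested others fell and 0 rose, where 13.8% of all 426 were called lower. Their median was −0.19, against −0.11 over all 426 miRNAs. miR-181a-5p was at −0.99 ± 0.14, miR-181b-5p at −0.90 ± 0.14 and miR-155-5p at −0.19 ± 0.02, but without scaling only miR-181a-5p of these 3 passed. miR-155-5p was detected on 2 NASH and 3 control arrays, so its small SE may not measure the spread between arrays. It turned to 0 with scaling over all probes and to 0.02 without scaling. miR-146a-5p was at 0.51 (adjusted p = 0.142), but it passed under the 4 other scalings, at 0.43 to 1.30, and miR-150-3p, the other arm of miR-150, at 0.01 (adjusted p = 1). The summed level in serum was 0.638 to 1.02 on NASH diet, against 0.521 to 1.07 on chow. miR-342-3p kept its rise in serum under each of these scalings, whereas of the others only miR-146a-5p was called higher under any of them.

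Markers of other cells moved in the same comparisons, and their part in the members' differences was not tested. In bulk samples fewer cells of a type and less RNA per cell cannot be told apart. In liver miR-223-3p, abundant in neutrophils and other myeloid cells, rose by 1.73 ± 0.19 (limma, adjusted p = 4.53e-04), while miR-511-3p, from the macrophage gene Mrc1, fell by 0.53 (adjusted p = 0.0136), though not with scaling over all probes (−0.52, adjusted p = 0.126) or without scaling (−0.10, adjusted p = 0.893). The summed myeloid level was 1.16 to 1.93 in NASH livers, against 0.536 to 0.699 in control livers, with miR-223-5p and miR-511-5p not detected. Neither tested arm of miR-142a, which all leukocytes express, passed in liver, with miR-142a-3p at 0.65 (adjusted p = 0.0746) and miR-142a-5p at 0.74 (adjusted p = 0.218). In serum miR-142a-3p fell by 1.34 (adjusted p = 0.0238), though not without scaling (−0.55, adjusted p = 0.334), and 0 of 3 tested myeloid miRNAs passed. Of 6 stellate cell and fibroblast miRNAs, 3 rose and 0 fell in liver, where 21.9% of all miRNAs were called higher. In serum 3 of the 6 fell and 0 rose, where 13.8% were called lower, and 1 fell without scaling. Among them miR-214-3p was at 1.57 in liver and −2.05 in serum. Of 2 endothelium and platelet miRNAs, 2 fell in liver, where 20.4% were called lower, and 0 without scaling. In serum 0 of the 2 passed.

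Of 7 hepatocyte miRNAs, 6 fell and 0 rose in NASH livers, where 20.4% of all miRNAs tested were called lower, and without scaling 3 of the 7 did. Their summed level was 65.5 to 125 there, against 163 to 188 in control livers. In serum 6 of them were tested. miR-122-3p was detected on 6 NASH and 0 control serum arrays, so it entered through NASH arrays and is left out of the count. Among the others miR-192-5p, miR-148a-3p and miR-122-5p rose and 0 fell, where 4.93% of all miRNAs were called higher. The summed level was 19.2 to 32.0 on NASH diet, against 0.961 to 4.43 on chow. miR-122-5p, which dominates the miRNA of hepatocytes, rose 14.15-fold in NASH serum. Thus miR-342-3p was higher in both tissues, whereas the hepatocyte list was lower in NASH liver and higher in NASH serum. Of the red cell miRNAs 3 of 4 tested fell in liver, against 20.4% of all miRNAs, and 2 of 3 in serum, against 13.8%, with 0 calls in either tissue without scaling. Their summed level was 1.15 to 4.29 in NASH livers, against 3.74 to 6.72 in control livers, and 8.19 to 72.0 in NASH serum, against 30.8 to 67.3 in control serum. The red cell index of serum, the log2 level of miR-451a less that of miR-23a-3p, differed by −0.44 between diets (exact permutation within weeks, two-sided p = 0.417). It ran from −0.25 to 3.57 in NASH serum, against 1.14 to 2.57 in control serum, and the average hides unlike weeks. At week 6 log2 miR-451a was 3.67 and 2.81 in NASH serum, against 5.64 and 5.42 in control serum. miR-23a-3p was then 3.78 and 3.06, against 3.42 and 2.92. At weeks 1 and 2 the miR-451a values of the diets overlapped, and single weeks of the index were not tested. With log2 miR-451a of each array as a covariate, an alternative chosen after seeing the data, the serum differences were 1.70 for miR-342-3p (limma, adjusted p = 0.0645) and −1.01 for miR-150-5p (adjusted p = 0.222). That of miR-150-5p in liver was 0.29 (adjusted p = 0.314).

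The miRNAs whose levels ran most like a member are given as descriptions over the 12 arrays of a tissue, which share their scaling and the diet contrast. In liver, among 217 others detected on all arrays, miR-342-3p was closest to miR-34a-5p, a p53 target (Pearson r = 0.995). miR-15b-5p (0.990), miR-500-3p (0.974), miR-324-5p (0.972) and miR-1949 (0.972) came next. In serum, among 195 others, it was again closest to miR-34a-5p (0.943), and then to miR-221-3p (0.938), miR-146a-5p (0.826), miR-714 (0.819) and miR-674-3p (0.815). miR-150-5p in serum was closest to miR-25-3p (0.965), miR-125b-5p (0.960), miR-139-5p (0.953), miR-345-5p (0.937) and miR-652-3p (0.914). Between miR-342-3p and miR-150-5p themselves r was −0.46 in serum, so the nearest lists of the 2 miRNAs had no miRNA in common there.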

How the data were processed

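Labelled miRNA from 12 liver and 12 serum samples was read on 1-colour (Cy3) Agilent arrays. The deposited values are spot intensity values from Agilent Feature Extraction 11.5, per the submitters' processing notes, and per the file headers the processed intensity is background-subtracted and not normalized between arrays. The deposited files give no mean spot signal, so the normexp alternative used the median spot signal and median local background. Probe values are means over spots, without controls and outlier flags. No spot of the members was saturated. Arrays were scaled to their 75th percentile, taken over the probes that were well above background throughout the fit (299 in liver, 253 in serum, 163 over 24 arrays). Signals were set to a floor, which is the median array's 5th percentile among signals well above background (0.0227 in liver, 0.0384 in serum, 0.0161 over 24 arrays), and log2 was taken; in liver 35.9% of the tested values were at the floor, and 39.2% in serum. A miRNA is its brightest probe, tested if detected on 2 or more arrays (388 in liver, 426 in serum). Groups were fitted with limma 3.58.1 in R 4.3.3 (lmFit, eBayes) with Benjamini-Hochberg adjustment over all tested miRNAs, at a threshold of 0.05. Limma and the permutation test were tested on simulated data. The number of arrays limits the precision.

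The members, the marker lists and the alternatives were chosen with earlier results of these data known. Named beside the members are up to 4 miRNAs of a marker list with the smallest p, and the 5 miRNAs with the highest correlation. Week pairs on 1 slide were tested and others given as values. Slide 1 held serum of weeks 1 and 2, slide 2 serum of week 6 and liver of week 1, and slide 3 liver of weeks 2 and 6. No 2 arrays of a group held identical values. Alternatives changed the signal, background, scaling, floor, probe summary, filter, variance model, block or arrays.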

Additional observations from a re-analysis of the deposited data

Results flagged for a closer look

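The result below is a difference between tissues that passed its own test. The serum minus liver diet difference of miR-150-5p was −1.76, from a serum difference of −1.32 and a liver difference of 0.44 on the floored scale.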

How the results depend on the processing

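The liver differences of miR-342-3p (mean and each week) and its liver minus serum levels kept direction and call under every alternative run, except week 1 with scaling over all probes (1.87, adjusted p = 0.0627). Its serum difference averaged over weeks lost the call under 1, the miR-451a covariate added after seeing the data (1.70), and ranged from 1.53 to 1.94 without 1 array. Its serum minus liver difference gained the call with miRNAs detected on all arrays (−0.70, adjusted p = 0.0474), with no filter (−0.70, adjusted p = 0.0397) and with the replicate block (−0.84), and ranged from −0.88 to −0.47 without 1 array, 3 of 24 fits passing.

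For miR-150-5p in serum the call was lost with scaling over all probes (−0.65), no scaling (−0.54), the replicate block (−1.46, adjusted p = 0.0537) and miR-451a as a covariate (−1.01), and in 9 of 12 fits without 1 array, which ranged from −1.59 to −0.99. In liver its call was lost with scaling over all probes (0.33), the mean of probes (0), no filter (0.44) and the covariate (0.29), and normexp reversed the mean (−0.15) and weeks 1, 2 and 6 (−0.19, −0.054 and −0.22). miR-342-5p in liver went to 0 with the mean of probes and to −0.094 with normexp (week 6 −0.0075, NASH week 6 minus week 2 −0.13). The normexp offset exceeds these signals by construction. For other reversals the cause was not tested. NASH liver week 6 minus week 2 of miR-150-5p turned to 0.13 over all probes, 0.12 unscaled and 0.001 with quantile normalization, and ranged from −0.31 to 0.048 without 1 array. Serum week 2 minus week 1 of miR-150-5p turned in control to −0.37 over all probes and −1.08 unscaled, ranging from −0.59 to 1.21 without 1 array, and to −0.15 unscaled in NASH. That of miR-342-3p in control turned to −0.63 unscaled. Control liver week 6 minus week 2 of miR-342-3p ranged from −0.36 to 0.054 without 1 array.

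Calls of higher and lower miRNAs in liver split 85 to 79, and 117 to 9 without scaling; in serum they split 21 to 59, and 37 to 7 without scaling. Same-numbered arrays of NASH and control deviated together with correlations of −0.599, 0.421 and 0.486 in liver for weeks 1, 2 and 6, and of 0.547 and 0.139 in serum for weeks 1 and 2. One NASH serum array of week 6 has no number in its label, so that week has no numbered pairs and the block fits leave the array out. With 1 liver week below 0 and 2 serum weeks, the numbers were not taken as pairs. Beside the block values above, the block lost the serum week 6 call of miR-342-3p (2.43, adjusted p = 0.0865) and gave one to miR-150-5p in liver at week 2 (0.53, adjusted p = 0.0352), and it changed no other call. Signals near background limit miR-342-5p in both tissues and miR-150-5p in liver.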
